A study of Homo sapiens with 28 samples.

Results

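A549 cells exposed to GSK126 were compared with naive A549 cells over 8 of the 28 RNA libraries of the study. The libraries were chosen by their labels alone. They comprised 3 libraries of the low mVenus gate and 2 of the high mVenus gate under GSK126, and 3 libraries of naive cells. A549 is an established human lung adenocarcinoma line, and all of its cells here, naive ones included, harboured the MGT#1-mVenus reporter, a transgene that expresses the fluorescent protein mVenus. Treated cells received GSK126 at 5 µM for 11 days and were then divided by flow sorting on mVenus fluorescence. Naive cells received neither GSK126 nor TGF-β1 and were sequenced without sorting. Exposure to GSK126 and passage through the sorter therefore separate the same libraries, and the effects of the one and the other cannot be told apart in this comparison. No day is recorded here for the naive cells, so time in culture may also differ between the arms. The study also holds 5 A549 libraries of sorted cells exposed to TGF-β1 at 5 ng/ml for 11 days, and 15 libraries of a second lung adenocarcinoma line, H1944, in the same design. Whether the replicate letters A to C stand for separate cultures, and whether the reporter line is 1 clone, is not given in the sources used here, so p-values measure only the spread between these libraries, which may be technical.

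GSK126 inhibits EZH2, the catalytic subunit of Polycomb repressive complex 2, which methylates lysine residue K27 of histone H3 and thereby helps to keep developmental genes silent. In epithelial cancers, epithelial-mesenchymal transition is the programme in which cells lose junction proteins such as E-cadherin and gain motility and matrix genes under factors of the SNAIL, ZEB and TWIST families. TGF-β signalling and the YAP and TEAD factors are among its known drivers. A549 cells carry an active NRF2 antioxidant programme and express several products otherwise known from liver and mucous epithelium.

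The GSK126 libraries held 2013449 to 4783344 counts and the naive libraries 6559146 to 6915146. Levels are given as CPM, the count divided by the library total and multiplied by 1000000. Summed counts over 374 olfactory receptor genes, which stand here for background reads, lay at 5.99 to 92.8 CPM under GSK126 and at 18.9, 43.8 and 195 CPM in naive libraries B, C and A. Naive library A stood apart in this measure, so counts of genes are also given without it. The epithelial markers KRT7, KRT8, KRT18, KRT19, EPCAM, CDH1 and MUC1 were all detected and summed to 8046 to 10783 CPM under GSK126 and 12190 to 12800 CPM in naive cells. KRT8, KRT18, EPCAM and CDH1 were lower in every GSK126 library than in every naive one. KRT7 (2810 to 4378 CPM under GSK126, 1857 to 2156 CPM in naive cells) and KRT19 were higher throughout, and MUC1 overlapped. Of the alveolar markers NKX2-1, SFTPA1, SFTPB, SFTPC and NAPSA, none reached a mean of 1 CPM under GSK126 and NAPSA alone did so in naive cells. The 15 leukocyte and endothelial markers summed to 4.85 to 30.9 CPM under GSK126 and 9.54 to 53.2 CPM in naive cells. The reporter transcript mVenus stood at 716, 883 and 1080 CPM in the low gate and 1235 and 1926 CPM in the high gate under GSK126, and at 465, 470 and 499.9 CPM in naive cells. The cells were sorted on its product, so it is left out wherever genes are counted.

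In A549 cells under GSK126, several EMT transcription factors and many matrix, motility and TGF-β-responsive genes were higher than in naive cells, while E-cadherin and members of the hepatic-type secreted proteins, NRF2 antioxidant and mucous gene lists were lower. Of 19842 genes tested, 726 were higher (3.66%) and 637 lower (3.21%) at an adjusted p under 0.05, the mean of the gates being set against naive cells. The arms did not overlap in any library for 695 of the higher and 561 of the lower genes, while 16.5% of all genes tested had arms that did not overlap. Protein-coding genes made up 96.4% of the higher, 82.6% of the lower and 75.2% of all tested genes. The median naive level was 14.5 CPM for the higher, 37.6 CPM for the lower and 8.20 CPM for all tested genes. A difference of at least 2-fold was fitted for 491 of the higher and 407 of the lower genes, and one of at least 16-fold for 19 and 5. The median log2 fold change over all tested genes was −0.16. It was 0.02 when naive library A and a TGF-β1 library of like background (the background-rich libraries) were left out, and the counts were then 1215 higher (7.16%) and 1459 lower (8.59%) of 16977, including 723 of the 726 and 622 of the 637. Shares over all genes were thus larger in that fit, and list counts given below without these libraries stand beside 7.16% and 8.59%. Without naive library B the number of genes past the test was 871. Without high-gate library A or B that gate held 1 library, and 25820 or 25877 genes were tested. Calls lost in those fits, here and below, therefore come with a changed set of tested genes as well as a lost library. Of the 1363 genes, 555 passed the test in every fit that left out 1 of the 8 libraries.

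LYPD1 (chromosome 2, 132644853 to 132671579, GRCh38), which encodes a Ly6-family modulator of nicotinic receptors, was among the coding genes with the highest fold changes. It had 27.2, 34.3 and 26.8 CPM (low gate) and 37.03 and 26.5 CPM (high gate) under GSK126, against 0.5797, 0.289 and 0.915 CPM in naive cells (log2 fold change 5.59 ± 0.37, adjusted p = 2.12e-08; here and below ± is the SE of the fit unless said otherwise). Every treated library lay more than an order of magnitude above every naive one. Separate arms were a condition for picking the genes at both ends, so the separation itself is no added result. Among the genes that fell, the death ligand TNFSF10 (chromosome 3, 172505508 to 172523507), which triggers apoptosis through its receptors, had 1.88, 0.497 and 2.59 CPM (low gate) and 0 and 0 CPM (high gate) under GSK126, against 11.3, 10.4 and 9.3000 CPM in naive cells (adjusted p = 2.28e-05). The high-gate libraries had no TNFSF10 count at all. In the low gate alone TNFSF10 fell by 2.74 ± 0.54 on the log2 scale. With a floor of 3 counts over the high gate, its level in naive cells was at least 21.1-fold higher than in that gate. The pooled CPM of TNFSF10 in naive cells was 9.86 times that under GSK126 (exact 95% counting interval 5.93 to 17.6).

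**Figure D1:**
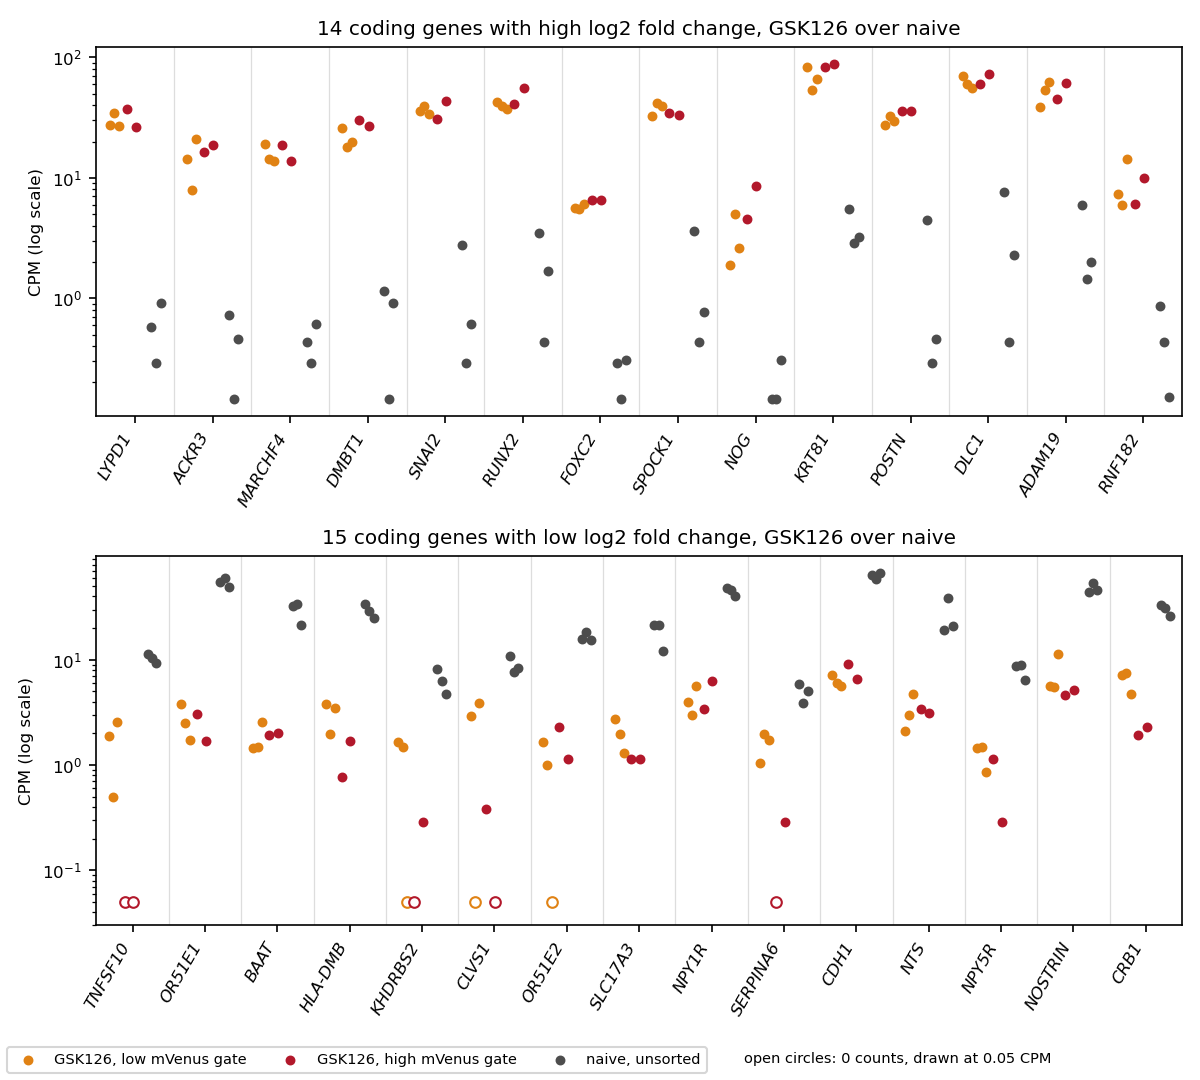
CPM per library on a log axis for 14 coding genes of high (top) and 15 of low (bottom) log2 fold change among those past the test with non-overlapping arms; orange points are low-gate and red points high-gate GSK126 libraries, grey points naive libraries, and open circles mark 0 counts. Because arms that do not overlap were a condition of the choice, the 5 GSK126 libraries of each of the 29 genes lie on 1 side of the 3 naive libraries.

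Other genes at the upper end were the chemokine-scavenging receptor ACKR3 (5.08 ± 0.50), the membrane ubiquitin ligase MARCHF4 (5.07 ± 0.40) and the RhoGAP tumour suppressor DLC1 (4.24 ± 0.53). Naive libraries held few reads of some of them, 9 counts in all for ACKR3 and 9 for MARCHF4, and the ratios of pooled CPM were 35.9 (exact 95% counting interval 18.6 to 79.6) and 37.1 (19.3 to 82.2). These intervals cover counting error only. DLC1 had a log2 fold change of 5.43 without naive library A. At the lower end stood the prostate-enriched olfactory-type receptor OR51E1 (−4.47 ± 0.39) and its neighbour OR51E2 (−3.73 ± 0.52), the neuropeptide Y receptor NPY1R (−3.36 ± 0.39), the neuropeptide precursor NTS (−3.16 ± 0.39) and the polarity gene CRB1 (−3.07 ± 0.57). Of these, CRB1 missed the test in 2 of the 8 fits that each left out 1 library, with the highest adjusted p, 0.0717, without high-gate library A. OR51E1 had 3.76, 2.48 and 1.73 CPM (low gate) and 3.05 and 1.71 CPM (high gate) under GSK126, against 54.5, 59.4 and 49.4 CPM in naive cells. Separate arms were again a condition of the choice, and both OR51E genes were kept out of the olfactory receptor sum.

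Among the 10 EMT transcription factors tested, 4 rose and 0 fell, with a median log2 fold change of 1.14 beside −0.16 over all tested genes. SNAI2, the SNAIL-family repressor also called SLUG, had 36.2, 39.7 and 34.1 CPM (low gate) and 30.9 and 43.3 CPM (high gate) under GSK126, against 2.75, 0.289 and 0.6098 CPM in naive cells. SNAI2 rose by 4.89 ± 0.36 on the log2 scale (adjusted p = 5.81e-08). The lowest treated library was far above the highest naive one, which was library A. The forkhead factor FOXC2, a regulator of mesenchymal tissue, had 5.64, 5.46 and 6.05 CPM (low gate) and 6.49 and 6.56 CPM (high gate) under GSK126, against 0.2898, 0.145 and 0.305 CPM in naive cells. FOXC2 rose by 4.47 ± 0.63 on the log2 scale (adjusted p = 0.000103). Its naive libraries held 5 counts in all, and the ratio of pooled CPM was 24.6 with an exact counting interval of 10.2 to 77.6. ZEB2, a zinc-finger repressor of E-cadherin, had 31.99, 27.3 and 25.9 CPM (low gate) and 30.9 and 26.2 CPM (high gate) under GSK126, against 12.9, 2.31 and 4.88 CPM in naive cells. ZEB2 rose by 2.13 ± 0.42 on the log2 scale (adjusted p = 0.00412). TWIST1, a basic helix-loop-helix factor of mesoderm, also passed the test (1.33 ± 0.38). However, TWIST1 missed the test in 8 of the 8 fits that each left out 1 library, with the highest adjusted p, 0.325, without high-gate library B. ZEB1, by contrast, stood at 102 ± 18.4 CPM under GSK126 and 67.2 ± 1.87 CPM in naive cells (SD, n = 5 and 3) and did not pass (log2 fold change 0.48 ± 0.19, adjusted p = 0.163). Without naive library A, 3 of the 10 passed, and the log2 fold changes of SNAI2 and ZEB2 were 6.17 and 2.86.

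Of 25 genes of mesenchymal structure and motility, 14 rose and 0 fell, with a median log2 fold change of 1.09; without the background-rich libraries 17 rose and 1 fell. Their summed level was 6739 to 8711 CPM under GSK126 and 3608 to 3811 CPM in naive cells, with no overlap between the arms. DPYSL3, a regulator of the cytoskeleton, had 170.4, 160.4 and 201 CPM (low gate) and 179.8 and 235 CPM (high gate) under GSK126, against 15.7, 9.11 and 10.8 CPM in naive cells. DPYSL3 rose by 3.98 ± 0.24 on the log2 scale (adjusted p = 1.06e-08). Periostin, POSTN, a matrix protein of connective tissue, had 27.2, 32.3 and 29.8 CPM (low gate) and 35.9 and 35.9 CPM (high gate) under GSK126, against 4.49, 0.289 and 0.457 CPM in naive cells. POSTN rose by 4.24 ± 0.51 on the log2 scale (adjusted p = 5.45e-05). TNC, which encodes tenascin C, had 116, 77.98 and 77.3 CPM (low gate) and 145 and 109.8 CPM (high gate) under GSK126, against 22.5, 17.5 and 22.9 CPM in naive cells. TNC rose by 2.299 ± 0.22 on the log2 scale (adjusted p = 1.26e-06). In all 3 genes each treated library exceeded each naive one. POSTN was highest in naive library A, and without that library its log2 fold change was 6.23. The gelatinase MMP2 had 105, 146 and 174 CPM (low gate) and 113 and 226 CPM (high gate) under GSK126, against 26.7, 28.2 and 30.2 CPM in naive cells. MMP2 rose by 2.37 ± 0.30 on the log2 scale (adjusted p = 4.03e-05). Fibronectin, FN1, the matrix glycoprotein bound by integrin α5β1, had 622, 788 and 1058 CPM (low gate) and 575 and 1001 CPM (high gate) under GSK126, against 255, 209 and 239 CPM in naive cells (log2 fold change 1.72 ± 0.28, adjusted p = 0.000455), and its receptor subunit ITGA5 rose with it (1.51 ± 0.26). N-cadherin, CDH2, rose less (0.91 ± 0.22). However, CDH2 missed the test in 4 of the 8 fits that each left out 1 library, with the highest adjusted p, 0.147, without high-gate library B. Vimentin, VIM, the intermediate filament protein of mesenchymal cells, had 1597, 1380.2 and 1741 CPM (low gate) and 1764 and 1841 CPM (high gate) under GSK126, against 914, 974 and 949.7 CPM in naive cells. The arms of VIM did not overlap, but the gene did not pass the test (log2 fold change 0.75 ± 0.24, adjusted p = 0.0707).

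Of 10 fibroblast markers tested 3 rose and 0 fell, with a median log2 fold change of 0.14. POSTN, among those that rose, is also a member of the mesenchymal list above. The 10 fibroblast markers summed to 74.1 to 90.9 CPM under GSK126 and to 3.18 to 50.7 CPM in naive cells, and POSTN, COL1A1 and LUM rose while the other 7 did not pass the test. However, LUM missed the test in 3 of the 8 fits that each left out 1 library, with the highest adjusted p, 0.11, without high-gate library A. DCN, a defining fibroblast proteoglycan, stood at 0.855 to 11.7 CPM under GSK126 and 0.434 to 14.5 CPM in naive cells. None of the 10 was at 0 in all 8 libraries, and their part in the result was not tested.

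TGF-β target genes rose in 17 of 34 cases and fell in 1, with a median log2 fold change of 1.105. The summed level of the list was 3729 to 4967 CPM under GSK126 and 1777 to 1838 CPM in naive cells. ADAM19, a membrane sheddase, had 38.9, 53.1 and 62.2 CPM (low gate) and 45.4 and 61.6 CPM (high gate) under GSK126, against 5.94, 1.45 and 1.98 CPM in naive cells. ADAM19 rose by 4.07 ± 0.33 on the log2 scale (adjusted p = 2.08e-07). ID2, which blocks helix-loop-helix factors and is a direct target of BMP and TGF-β SMADs, had 53.9, 68.04 and 73.8 CPM (low gate) and 62.99 and 71.000 CPM (high gate) under GSK126, against 8.41, 9.69 and 10.1 CPM in naive cells. ID2 rose by 2.73 ± 0.23 on the log2 scale (adjusted p = 3.06e-07). The arms of both genes were separate, and without naive library A the log2 fold change of ADAM19 was 4.78. The docking protein gene NEDD9 was the target that fell (−1.16 ± 0.21). The upstream genes of the pathway moved little as a group: of 35 TGF-β and BMP ligands, receptors and antagonists 4 rose and 2 fell, with a median of 0.12. Those that moved were mostly modulators. LTBP2, a latent TGF-β binding protein of microfibrils, had 82.996, 83.4 and 81.6 CPM (low gate) and 92.4 and 130.0 CPM (high gate) under GSK126, against 8.695, 4.05 and 6.403 CPM in naive cells. LTBP2 rose by 3.88 ± 0.28 on the log2 scale (adjusted p = 5.19e-08). FSTL3, an antagonist of activin, had 101, 106 and 85.1 CPM (low gate) and 131 and 145 CPM (high gate) under GSK126, against 37.1, 42.1 and 55.2 CPM in naive cells. FSTL3 rose by 1.28 ± 0.27 on the log2 scale (adjusted p = 0.00433). The BMP antagonist noggin, NOG, rose on 4 naive counts in all (log2 fold change 4.301 ± 0.70, adjusted p = 0.000442; ratio of pooled CPM 22.4, exact counting interval 8.35 to 84.6). BMP6, a BMP ligand, had 1.05, 2.48 and 4.32 CPM (low gate) and 2.67 and 3.71 CPM (high gate) under GSK126, against 15.2, 14.9 and 15.7 CPM in naive cells. BMP6 fell by 2.52 ± 0.38 on the log2 scale (adjusted p = 0.000209). The ligand TGFB2 stood at 72.1 ± 12.3 CPM under GSK126 and 62.2 ± 4.201 CPM in naive cells (SD, n = 5 and 3), with overlapping arms (log2 fold change 0.16 ± 0.20, adjusted p = 0.741).

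Of 32 genes of the YAP, TAZ and TEAD pathway and its targets 14 rose and 0 fell (median 0.57); without the background-rich libraries 18 rose and 1 fell. CCN1, a secreted integrin ligand, had 155, 122 and 82.04 CPM (low gate) and 161 and 167 CPM (high gate) under GSK126, against 17.5, 16.8 and 17.1 CPM in naive cells. CCN1 rose by 2.97 ± 0.26 on the log2 scale (adjusted p = 5.21e-07). The receptor tyrosine kinase AXL, which binds GAS6, had 611, 373 and 377 CPM (low gate) and 605 and 571 CPM (high gate) under GSK126, against 51.6, 60.6 and 69.4 CPM in naive cells. AXL rose by 3.0 ± 0.29 on the log2 scale (adjusted p = 1.18e-06). PTPN14, a phosphatase that restrains YAP, had 263, 201 and 190.0 CPM (low gate) and 268 and 249 CPM (high gate) under GSK126, against 70.4, 54.5 and 64.2 CPM in naive cells. PTPN14 rose by 1.86 ± 0.22 on the log2 scale (adjusted p = 1.26e-05). All 3 had separate arms, with treated libraries above naive ones throughout. Members of AP-1, a dimeric factor that often acts beside TEAD, were looked up after the values had been seen. FOSL1, the FOS-family subunit FRA1, had 289, 231 and 214 CPM (low gate) and 304 and 365 CPM (high gate) under GSK126, against 18.98, 21.5 and 20.9 CPM in naive cells. FOSL1 rose by 3.72 ± 0.27 on the log2 scale (adjusted p = 5.77e-08). JUN had 198, 165 and 191 CPM (low gate) and 188 and 258 CPM (high gate) under GSK126, against 35.9, 34.1 and 48.3 CPM in naive cells. JUN rose by 2.28 ± 0.27 on the log2 scale (adjusted p = 1.64e-05).

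For 2 genes that rose, the RefSeq promoter windows (GRCh38.p14, 250 bases before to 50 after the start) are shown because they hold a match to the AP-1 motif; the genes were chosen after their values were seen. They are the cytokine gene IL11, chr19:55370414-55370713 (minus strand), and the urokinase receptor gene PLAUR, chr19:43670120-43670419 (minus strand). Capitals mark TGAGTCA, a match to TGANTCA searched on both strands, which starts 96 bases before the IL11 start and 186 bases before the PLAUR start. Such a match was present in 7.76% of 27305 windows of this length, and is a description of the sequence and not of binding.
IL11: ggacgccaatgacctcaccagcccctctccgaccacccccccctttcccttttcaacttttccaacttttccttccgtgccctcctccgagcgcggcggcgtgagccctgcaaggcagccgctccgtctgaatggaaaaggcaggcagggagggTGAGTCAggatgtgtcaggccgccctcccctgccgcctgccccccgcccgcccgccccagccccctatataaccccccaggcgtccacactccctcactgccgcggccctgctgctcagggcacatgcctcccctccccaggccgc
PLAUR: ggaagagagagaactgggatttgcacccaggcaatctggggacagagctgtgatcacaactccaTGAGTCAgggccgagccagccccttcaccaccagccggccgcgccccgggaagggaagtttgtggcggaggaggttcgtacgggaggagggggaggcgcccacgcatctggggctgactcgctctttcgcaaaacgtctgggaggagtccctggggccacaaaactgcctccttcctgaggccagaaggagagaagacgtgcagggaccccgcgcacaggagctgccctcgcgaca
IL11 had 8.78, 6.95 and 8.204 CPM (low gate) and 11.1 and 8.84 CPM (high gate) under GSK126, against 0.725, 0.434 and 0.6098 CPM in naive cells. IL11 rose by 3.83 ± 0.37 on the log2 scale (adjusted p = 1.23e-06). PLAUR had 41.6, 39.7 and 57.9 CPM (low gate) and 53.1 and 50.5 CPM (high gate) under GSK126, against 21.01, 20.97 and 24.1 CPM in naive cells. PLAUR rose by 1.07 ± 0.22 on the log2 scale (adjusted p = 0.00353). The arms of IL11 were separate, and those of PLAUR were too.

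The collagens divided by chain. Of 40 tested, 10 rose and 2 fell, and the 2 were COL4A3 and COL4A4, the chains that pair in the specialised basement membranes of the glomerulus and the alveolus. COL4A3 had 10.04, 6.46 and 9.4997 CPM (low gate) and 6.11 and 3.14 CPM (high gate) under GSK126, against 49.4, 25.6 and 35.1 CPM in naive cells. COL4A3 fell by 2.56 ± 0.23 on the log2 scale (adjusted p = 4.53e-07). COL4A4 had 17.6, 12.9 and 11.2 CPM (low gate) and 12.98 and 15.1 CPM (high gate) under GSK126, against 58.7, 41.2 and 46.3 CPM in naive cells. COL4A4 fell by 1.82 ± 0.18 on the log2 scale (adjusted p = 2.13e-06). The chains of common basement membrane moved the opposite way. COL4A1 had 36.6, 40.2 and 31.1 CPM (low gate) and 33.98 and 43.3 CPM (high gate) under GSK126, against 9.71, 7.38 and 8.54 CPM in naive cells. COL4A1 rose by 2.08 ± 0.25 on the log2 scale (adjusted p = 1.5e-05). COL4A2 had 91.2, 69.04 and 69.95 CPM (low gate) and 88.9 and 117 CPM (high gate) under GSK126, against 21.01, 18.4 and 28.2 CPM in naive cells. COL4A2 rose by 1.91 ± 0.27 on the log2 scale (adjusted p = 0.000118). In all 4 genes the arms were separate, low for COL4A3 and COL4A4 and high for COL4A1 and COL4A2 under GSK126. COL4A5, which can join either network, rose by a smaller amount (log2 fold change 0.87 ± 0.20, adjusted p = 0.00895). However, COL4A5 missed the test in 3 of the 8 fits that each left out 1 library, with the highest adjusted p, 0.0917, without high-gate library A. COL4A6 did not pass (log2 fold change 1.17 ± 0.54, adjusted p = 0.279). Fibrillar COL1A1 had 16.5, 32.3 and 28.5 CPM (low gate) and 21.8 and 45.1 CPM (high gate) under GSK126, against 3.91, 1.01 and 2.44 CPM in naive cells. COL1A1 rose by 3.55 ± 0.39 on the log2 scale (adjusted p = 6.82e-06).

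COL4A1 with COL4A2, and COL4A3 with COL4A4, are pairs transcribed head to head from one intergenic stretch, and the 4 promoter windows (RefSeq, GRCh38.p14) are shown because the 2 genes of a pair moved the same way and the pairs moved in opposite directions. The windows of COL4A1, chr13:110307108-110307407 (minus strand), and COL4A2, chr13:110307034-110307333 (plus strand), share 226 bases. The windows of COL4A3, chr2:227164374-227164673 (plus strand), and COL4A4, chr2:227164156-227164455 (minus strand), share 82 bases. Capitals mark the shared bases, and each sequence reads 5′ to 3′ on its own gene's strand.
COL4A1: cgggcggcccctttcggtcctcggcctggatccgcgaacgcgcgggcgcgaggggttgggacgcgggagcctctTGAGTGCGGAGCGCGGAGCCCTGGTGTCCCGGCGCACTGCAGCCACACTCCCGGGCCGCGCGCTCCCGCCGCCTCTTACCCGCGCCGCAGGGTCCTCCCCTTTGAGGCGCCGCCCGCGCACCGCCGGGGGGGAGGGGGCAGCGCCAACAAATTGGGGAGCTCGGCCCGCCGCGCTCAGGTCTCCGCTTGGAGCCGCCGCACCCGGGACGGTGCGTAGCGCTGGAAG
COL4A2: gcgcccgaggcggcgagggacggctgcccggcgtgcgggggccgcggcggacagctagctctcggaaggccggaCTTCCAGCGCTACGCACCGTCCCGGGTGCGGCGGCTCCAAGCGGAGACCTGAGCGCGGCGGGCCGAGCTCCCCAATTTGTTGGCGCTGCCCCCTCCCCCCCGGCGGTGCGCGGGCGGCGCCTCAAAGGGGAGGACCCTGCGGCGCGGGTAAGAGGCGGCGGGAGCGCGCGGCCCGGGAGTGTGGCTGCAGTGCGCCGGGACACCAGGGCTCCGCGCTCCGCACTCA
COL4A3: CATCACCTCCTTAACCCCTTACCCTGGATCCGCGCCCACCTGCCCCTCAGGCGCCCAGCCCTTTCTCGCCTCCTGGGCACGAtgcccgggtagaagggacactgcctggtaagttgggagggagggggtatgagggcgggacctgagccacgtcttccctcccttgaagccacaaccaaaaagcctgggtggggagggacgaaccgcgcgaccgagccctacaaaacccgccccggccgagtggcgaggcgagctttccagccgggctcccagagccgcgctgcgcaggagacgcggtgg
COL4A4: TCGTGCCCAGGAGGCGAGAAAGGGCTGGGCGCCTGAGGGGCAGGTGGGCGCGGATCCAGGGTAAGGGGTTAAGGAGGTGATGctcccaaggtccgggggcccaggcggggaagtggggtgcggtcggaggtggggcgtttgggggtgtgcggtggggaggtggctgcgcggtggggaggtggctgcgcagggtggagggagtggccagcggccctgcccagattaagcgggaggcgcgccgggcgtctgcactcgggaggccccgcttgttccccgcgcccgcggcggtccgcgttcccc

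**Figure D2:**
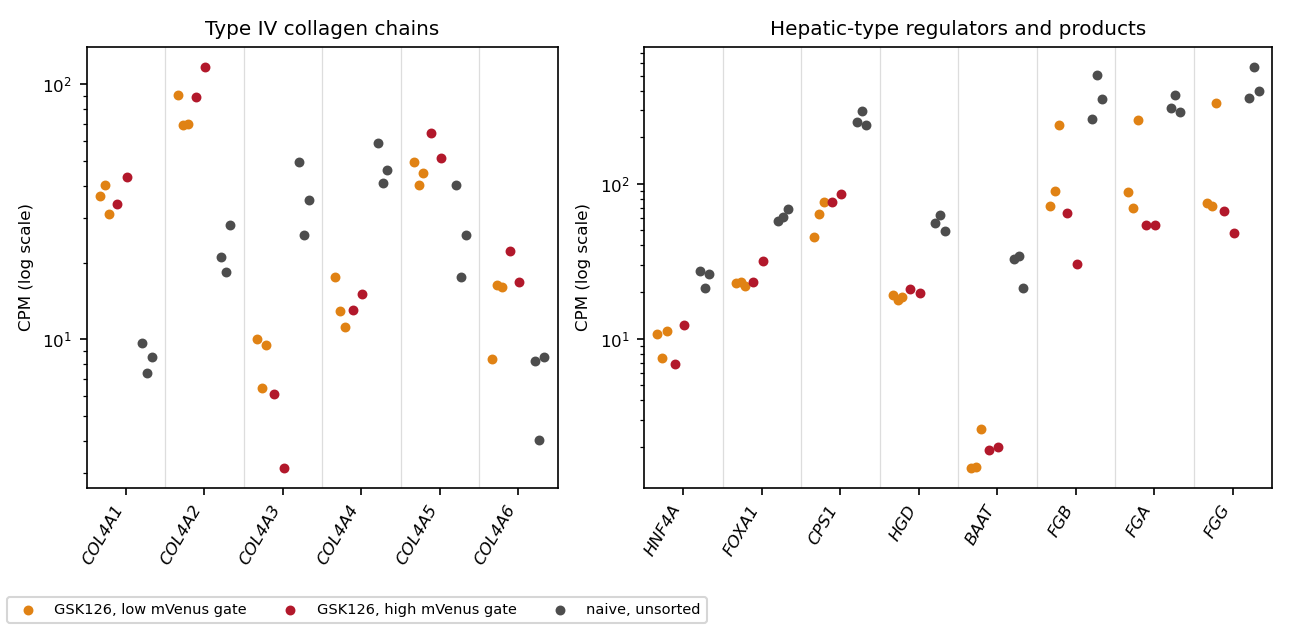
CPM per library on a log axis for the 6 type IV collagen chains (left) and for HNF4A, FOXA1 and 6 liver and plasma protein genes (right). Orange points are low-gate and red points high-gate GSK126 libraries, grey points naive libraries. Whether HNF4A and FOXA1 regulate the 6 genes here was not tested. COL4A1 and COL4A2 lie higher and COL4A3 and COL4A4 lower in all 5 GSK126 libraries, and for FGG low-gate library C lies close to the naive libraries.

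Among laminins, nidogens and integrins 7 of 39 rose and 2 fell. NID2, a linker of basement membranes, had 56.9, 38.7 and 34.1 CPM (low gate) and 70.2 and 47.6 CPM (high gate) under GSK126, against 15.9, 13.4 and 13.9 CPM in naive cells. NID2 rose by 1.75 ± 0.31 on the log2 scale (adjusted p = 0.000931). The epithelial integrin subunit ITGB6, which activates latent TGF-β, had 11.3, 10.9 and 8.64 CPM (low gate) and 9.93 and 8.84 CPM (high gate) under GSK126, against 26.5, 19.4 and 14.2 CPM in naive cells. ITGB6 fell by 1.06 ± 0.23 on the log2 scale (adjusted p = 0.00517). NID2 was above and ITGB6 below naive cells in every treated library. Matrix proteases and their inhibitors rose in 13 of 48 cases and fell in 1 (median 0.505). Without the background-rich libraries 16 of 44 rose and 2 fell. Among them ADAMTS1, a secreted protease that cleaves proteoglycans, had 19.02, 16.4 and 20.3 CPM (low gate) and 21.4 and 17.7 CPM (high gate) under GSK126, against 6.52, 3.76 and 4.42 CPM in naive cells. ADAMTS1 rose by 1.92 ± 0.21 on the log2 scale (adjusted p = 6.57e-06). The catalytically inactive adhesion protein ADAM23 rose by 2.47 ± 0.27 on the log2 scale.

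Epithelial junction and identity genes were lowered in part. Of 38 tested, 7 fell and 1 rose, with a median of −0.57; without the background-rich libraries 11 of 35 fell and 4 rose. E-cadherin, CDH1, had 7.11, 5.96 and 5.61 CPM (low gate) and 9.16 and 6.56 CPM (high gate) under GSK126, against 64.5, 58.3 and 67.1 CPM in naive cells. CDH1 fell by 3.24 ± 0.45 on the log2 scale (adjusted p = 0.000443). The highest treated library remained far below the lowest naive one. Plakoglobin, JUP, which links cadherins and desmosomes to the cytoskeleton, had 32.4, 53.1 and 67.4 CPM (low gate) and 39.3 and 64.4 CPM (high gate) under GSK126, against 143, 151 and 215 CPM in naive cells. JUP fell by 1.82 ± 0.29 on the log2 scale (adjusted p = 0.000405). ELF3, an epithelial ETS factor, had 60.4, 71.02 and 73.4 CPM (low gate) and 40.8 and 74.4 CPM (high gate) under GSK126, against 173, 145 and 161 CPM in naive cells. ELF3 fell by 1.404 ± 0.19 on the log2 scale (adjusted p = 8.81e-05). The related EHF also fell (−1.19 ± 0.24). KRT18, a keratin of simple epithelia, had 1577, 1642 and 1584 CPM (low gate) and 1425 and 2038 CPM (high gate) under GSK126, against 3535, 3851 and 4035 CPM in naive cells. KRT18 fell by 1.28 ± 0.24 on the log2 scale (adjusted p = 0.0018). Its partner KRT8 fell as well (−1.08 ± 0.25). However, KRT8 missed the test in 2 of the 8 fits that each left out 1 library, with the highest adjusted p, 0.106, without high-gate library A. KRT19 was the member that rose (0.92 ± 0.22). However, KRT19 missed the test without high-gate library B (adjusted p = 0.248). The adhesion molecule EPCAM stood at 8.37 ± 1.65 CPM under GSK126 and 14.1 ± 1.73 CPM in naive cells (SD, n = 5 and 3) and did not pass (log2 fold change −0.85 ± 0.28, adjusted p = 0.0808). Outside this list the hair keratin KRT81 had 83.6, 53.6 and 66.1 CPM (low gate) and 83.2 and 88.4 CPM (high gate) under GSK126, against 5.51, 2.89 and 3.202 CPM in naive cells. KRT81 rose by 4.27 ± 0.29 on the log2 scale (adjusted p = 2.33e-08). The basal keratin KRT6A, induced in wounded epidermis, had 8.15, 4.97 and 12.95 CPM (low gate) and 11.5 and 5.42 CPM (high gate) under GSK126, against 1.74, 0 and 0.457 CPM in naive cells. KRT6A rose by 3.47 ± 0.53 on the log2 scale (adjusted p = 0.000254). KRT6A had a log2 fold change of 4.96 without naive library A. Of 21 cornified envelope and epidermal genes tested, KRT6A was the only 1 that rose and 0 fell, with a median of −0.27. Over all tested genes 3.66% rose. Near-identical hair keratin genes next to KRT81 can share reads with it.

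Receptor tyrosine kinases rose in 8 of 48 cases and fell in 2, and without the background-rich libraries 11 of 44 rose and 4 fell. Besides AXL they included the ephrin receptor EPHB2, with 101, 94.9 and 95.4 CPM (low gate) and 92.8 and 123 CPM (high gate) under GSK126, against 20.7, 16.3 and 24.9 CPM in naive cells. EPHB2 rose by 2.25 ± 0.25 on the log2 scale (adjusted p = 6.94e-06). Its relative EPHA4 had 20.7, 16.9 and 20.3 CPM (low gate) and 16.4 and 21.4 CPM (high gate) under GSK126, against 8.12, 2.46 and 3.35 CPM in naive cells. EPHA4 rose by 2.06 ± 0.28 on the log2 scale (adjusted p = 8.97e-05). ROR1, a receptor for WNT5A, had 49.8, 55.1 and 53.1 CPM (low gate) and 53.4 and 56.5 CPM (high gate) under GSK126, against 27.7, 20.5 and 23.5 CPM in naive cells. ROR1 rose by 1.12 ± 0.19 on the log2 scale (adjusted p = 0.000519). All 3 had separate arms. EGFR, the receptor for EGF and TGF-α, was higher with 437 ± 34.6 CPM under GSK126 and 192 ± 15.3 CPM in naive cells (SD, n = 5 and 3; log2 fold change 1.14 ± 0.22, adjusted p = 0.00203), and its highest adjusted p was 0.0453, without high-gate library B. Of 35 growth factor ligands 6 rose and 1 fell. Neuregulin, NRG1, the ligand of ERBB3 and ERBB4, had 242, 247 and 234 CPM (low gate) and 276 and 235 CPM (high gate) under GSK126, against 106, 74.5 and 91.8 CPM in naive cells. NRG1 rose by 1.403 ± 0.21 on the log2 scale (adjusted p = 0.000235). GAS6, the AXL ligand, had 7.32, 6.46 and 5.18 CPM (low gate) and 8.399 and 13.7 CPM (high gate) under GSK126, against 1.59, 1.302 and 2.44 CPM in naive cells. GAS6 rose by 2.18 ± 0.36 on the log2 scale (adjusted p = 0.000522). VEGFA, the main endothelial growth factor, had 269, 292 and 355 CPM (low gate) and 275 and 417 CPM (high gate) under GSK126, against 114, 101 and 123 CPM in naive cells. VEGFA rose by 1.46 ± 0.25 on the log2 scale (adjusted p = 0.000664). The ephrin ligand EFNB2 was higher with 70.3 ± 13.4 CPM under GSK126 and 13.5 ± 2.44 CPM in naive cells (SD, n = 5 and 3, log2 fold change 2.33 ± 0.22). Of 49 axon guidance genes, EFNB2 among them, 7 rose and 4 fell, and without the background-rich libraries 13 of 47 rose and 4 fell.

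WNT pathway genes rose in 4 of 37 cases and fell in 1. Without the background-rich libraries 4 of 35 rose and 4 fell, where 7.16% of all genes rose and 8.59% fell. SFRP1, a secreted decoy for WNT ligands, had 70.2, 63.6 and 80.3 CPM (low gate) and 89.3 and 118 CPM (high gate) under GSK126, against 8.99, 4.34 and 5.64 CPM in naive cells. SFRP1 rose by 3.74 ± 0.24 on the log2 scale (adjusted p = 2.12e-08). WNT5A itself had 13.6, 14.4 and 11.7 CPM (low gate) and 11.1 and 17.1 CPM (high gate) under GSK126, against 10.1, 5.06 and 3.96 CPM in naive cells. WNT5A rose by 1.096 ± 0.27 on the log2 scale (adjusted p = 0.0136). However, WNT5A missed the test in 3 of the 8 fits that each left out 1 library, with the highest adjusted p, 0.189, without high-gate library B. In the NOTCH pathway 3 of 21 rose and 1 fell: the coactivator MAML2 rose (1.06 ± 0.19), as did the ligand JAG1 (0.99 ± 0.21) and the receptor NOTCH2 (0.76 ± 0.22), and the receptor NOTCH3 fell (−1.14 ± 0.27). Of these, JAG1 missed the test in 2 of the 8 fits that each left out 1 library, with the highest adjusted p, 0.0872, without high-gate library B. NOTCH2 missed the test in 6 of the 8 fits that each left out 1 library, with the highest adjusted p, 0.396, without high-gate library B. NOTCH3 missed the test in 2 of the 8 fits that each left out 1 library, with the highest adjusted p, 0.113, without naive library C.

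Hepatic-type genes were lower in part. Of 41 liver and plasma protein genes 15 fell and 1 rose, the complement component C3, with a median of −0.87. The summed level was 1278 to 2165 CPM under GSK126 and 3432 to 4249 CPM in naive cells. CPS1, the first enzyme of the urea cycle, had 45.2, 63.6 and 76.9 CPM (low gate) and 75.97 and 86.1 CPM (high gate) under GSK126, against 253, 297 and 241 CPM in naive cells. CPS1 fell by 1.99 ± 0.20 on the log2 scale (adjusted p = 2.51e-06). BAAT, which conjugates bile acids, had 1.46, 1.49 and 2.59 CPM (low gate) and 1.91 and 1.996 CPM (high gate) under GSK126, against 32.6, 33.98 and 21.3 CPM in naive cells. BAAT fell by 4.02 ± 0.30 on the log2 scale (adjusted p = 7.6e-08). HGD, an enzyme of tyrosine breakdown, had 19.02, 17.9 and 18.6 CPM (low gate) and 20.996 and 19.7 CPM (high gate) under GSK126, against 55.5, 63.3 and 49.2 CPM in naive cells. HGD fell by 1.61 ± 0.22 on the log2 scale (adjusted p = 6.31e-05). For each of these 3 genes the treated libraries lay below the naive ones without overlap. The fibrinogen genes differed among the treated libraries. FGB had 71.5, 90.4 and 241 CPM (low gate) and 64.9 and 30.5 CPM (high gate) under GSK126, against 264, 507 and 352 CPM in naive cells. FGB fell by 2.37 ± 0.45 on the log2 scale (adjusted p = 0.00499). However, FGB missed the test in 2 of the 8 fits that each left out 1 library, with the highest adjusted p, 0.0641, without high-gate library B. FGA (−2.01 ± 0.49) and FGG (−2.33 ± 0.50) lost the call more often, in 5 and 4 of the 8 fits that left out a library, with highest adjusted p-values of 0.261 and 0.185 without high-gate library B. In FGA, FGB and FGG low-gate library C was the highest of the treated libraries.

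HNF4A and FOXA1, chosen from a longer list of regulators, also fell. HNF4A, the nuclear receptor that governs hepatic and gut epithelium, had 10.7, 7.45 and 11.2 CPM (low gate) and 6.87 and 12.3 CPM (high gate) under GSK126, against 27.5, 21.3 and 26.1 CPM in naive cells. HNF4A fell by 1.39 ± 0.22 on the log2 scale (adjusted p = 0.00031). FOXA1, a pioneer factor of endodermal epithelia, had 22.8, 23.3 and 22.02 CPM (low gate) and 23.3 and 31.7 CPM (high gate) under GSK126, against 57.7, 61.02 and 69.2 CPM in naive cells. FOXA1 fell by 1.41 ± 0.22 on the log2 scale (adjusted p = 0.000337). Neither gene had a treated library at the level of a naive one. They belong to a list of 100 developmental transcription factors outside the HOX clusters, of which 10 rose and 11 fell, with a median of 0.01. Without the background-rich libraries 17 of 91 rose and 13 fell. RUNX2, the master factor of bone formation, had 42.2, 39.2 and 37.6 CPM (low gate) and 40.8 and 55.6 CPM (high gate) under GSK126, against 3.48, 0.434 and 1.68 CPM in naive cells. RUNX2 rose by 4.54 ± 0.33 on the log2 scale (adjusted p = 5.77e-08). TBX3, a T-box repressor, had 15.3, 18.4 and 20.7 CPM (low gate) and 12.98 and 23.4 CPM (high gate) under GSK126, against 5.797, 1.74 and 4.27 CPM in naive cells. TBX3 rose by 2.196 ± 0.31 on the log2 scale (adjusted p = 0.000111). The homeobox factors LHX8 and ALX1 fell: LHX8 had 17.1, 16.4 and 19.9 CPM (low gate) and 8.02 and 15.97 CPM (high gate) under GSK126, against 64.6, 50.9 and 43.6 CPM in naive cells. LHX8 fell by 1.89 ± 0.21 on the log2 scale (adjusted p = 6.51e-06). ALX1 had 4.599, 3.97 and 4.75 CPM (low gate) and 4.58 and 5.13 CPM (high gate) under GSK126, against 21.3, 21.98 and 16.3 CPM in naive cells. ALX1 fell by 2.15 ± 0.29 on the log2 scale (adjusted p = 7.39e-05). Without naive library A the log2 fold change of RUNX2 was 5.24. TBX3 and RUNX2 were higher and LHX8 and ALX1 lower in every treated library. The neighbours FOXQ1 (3.34 ± 0.59) and FOXF2 (1.81 ± 0.30) on chromosome 6 rose together, whereas FOXC1, of the same cluster, fell (−1.01 ± 0.24; FOXC1 missed the test in 2 of the 8 fits that each left out 1 library, with the highest adjusted p, 0.0745, without high-gate library A). None of 26 HOX genes passed the test by edgeR (5 at an unadjusted p under 0.05) or by DESeq2, and their median was 0.08.

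The drug's own target showed no change at the RNA level that the test could detect. EZH2 had 89.9, 109.8 and 80.7 CPM (low gate) and 83.2 and 63.9 CPM (high gate) under GSK126, against 65.8, 70.6 and 69.2 CPM in naive cells, with overlapping arms (log2 fold change 0.19 ± 0.21, adjusted p = 0.71). RNA levels do not report the activity of the enzyme, and the methylated histone was not measured in these libraries. Of 14 PRC2 subunits and H3K27 demethylases 2 rose and 0 fell, and without the background-rich libraries 1 rose and 1 fell. The accessory subunit JARID2 had 57.5, 74.002 and 65.6 CPM (low gate) and 54.6 and 63.3 CPM (high gate) under GSK126, against 32.03, 25.3 and 34.5 CPM in naive cells. JARID2 rose by 0.96 ± 0.21 on the log2 scale (adjusted p = 0.00726). The demethylase KDM6B, which removes the mark, had 27.4, 32.3 and 30.7 CPM (low gate) and 22.9 and 31.7 CPM (high gate) under GSK126, against 10.7, 7.95 and 19.7 CPM in naive cells. KDM6B rose by 1.09 ± 0.32 on the log2 scale (adjusted p = 0.0431). Their arms were separate. However, JARID2 missed the test without high-gate library B (adjusted p = 0.136). KDM6B missed the test in 6 of the 8 fits that each left out 1 library, with the highest adjusted p, 0.261, without high-gate library B. BMI1, a subunit of the partner complex PRC1, was looked up after the values were seen. It had 76.1, 69.5 and 78.6 CPM (low gate) and 95.1 and 66.2 CPM (high gate) under GSK126, against 22.8, 31.4 and 22.1 CPM in naive cells (log2 fold change 1.51 ± 0.24, adjusted p = 0.000325), and all treated libraries exceeded all naive ones.

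Of 36 tested genes of the NRF2 antioxidant programme, which is active in A549, 6 were lower and 1 was higher. The median log2 fold change of the list was −0.22, close to the −0.16 over all tested genes. The summed level was 24611 to 31357 CPM under GSK126 and 33404 to 38619 CPM in naive cells. GPX2, a glutathione peroxidase of epithelia, had 72.96, 125 and 111 CPM (low gate) and 91.2 and 97.2 CPM (high gate) under GSK126, against 411, 425 and 359.8 CPM in naive cells. GPX2 fell by 2.097 ± 0.21 on the log2 scale (adjusted p = 2.27e-06). ALDH1A1, which makes retinoic acid, had 1084, 1112 and 1046 CPM (low gate) and 983 and 1047 CPM (high gate) under GSK126, against 2817, 3322 and 2685 CPM in naive cells. ALDH1A1 fell by 1.58 ± 0.23 on the log2 scale (adjusted p = 0.000183). AKR1C2, a steroid reductase, had 443, 566 and 622 CPM (low gate) and 446 and 492 CPM (high gate) under GSK126, against 1081, 1113 and 977 CPM in naive cells. AKR1C2 fell by 1.14 ± 0.23 on the log2 scale (adjusted p = 0.00294). AKR1C2 and its neighbours AKR1C1 and AKR1C3 on chromosome 10 are near-identical and can share reads, so their values are uncertain one by one. AKR1C1, AKR1C3 and PGD, also called lower, missed the test in 2, 5 and 7 of the 8 fits that each left out 1 library. HMOX1, heme oxygenase, moved against the others with 37.8, 34.8 and 55.3 CPM (low gate) and 44.7 and 58.7 CPM (high gate) under GSK126, against 5.797, 5.64 and 6.86 CPM in naive cells. HMOX1 rose by 2.87 ± 0.30 on the log2 scale (adjusted p = 3.08e-06). NQO1, a classical NRF2 target, stood at 1812 ± 161 CPM under GSK126 and 2138 ± 249.9 CPM in naive cells (SD, n = 5 and 3), with overlapping arms, and did not pass (log2 fold change −0.31 ± 0.25, adjusted p = 0.573). Without the background-rich libraries 12 of 36 fell and 1 rose.

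Of 21 mucous secretory genes 3 fell and 0 rose, and without the background-rich libraries 5 of 18 fell. AGR2, a disulfide isomerase needed for mucin folding, had 222, 282 and 355 CPM (low gate) and 209 and 204 CPM (high gate) under GSK126, against 864, 1417 and 1082 CPM in naive cells. AGR2 fell by 2.33 ± 0.29 on the log2 scale (adjusted p = 2.31e-05). MUC5B, a gel-forming airway mucin, had 274, 305 and 250.4 CPM (low gate) and 225 and 359.9 CPM (high gate) under GSK126, against 598, 583 and 1232 CPM in naive cells. MUC5B fell by 1.597 ± 0.37 on the log2 scale (adjusted p = 0.0128). The ETS factor of secretory cells SPDEF fell by 1.997 ± 0.45 on the log2 scale. The arms of MUC5B were separate. However, MUC5B missed the test in 2 of the 8 fits that each left out 1 library, with the highest adjusted p, 0.0937, without naive library C. SPDEF missed the test in 2 of the 8 fits that each left out 1 library, with the highest adjusted p, 0.077, without naive library B. The airway protease inhibitor SLPI had 19.4, 21.4 and 22.9 CPM (low gate) and 37.4 and 16.5 CPM (high gate) under GSK126, against 76.2, 76.2 and 53.97 CPM in naive cells (log2 fold change −1.61 ± 0.25, adjusted p = 0.000276), below naive cells throughout.

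Cholesterol synthesis and SREBP2 target genes rose in 8 of 33 cases and 0 fell (median 0.38). INSIG1, the sterol sensor's anchor and itself an SREBP target, had 102, 148 and 192 CPM (low gate) and 139 and 143 CPM (high gate) under GSK126, against 39.9, 40.9 and 30.6 CPM in naive cells. INSIG1 rose by 1.88 ± 0.30 on the log2 scale (adjusted p = 0.000379). HMGCS1, an early enzyme of the pathway, had 122, 239 and 249 CPM (low gate) and 148 and 179 CPM (high gate) under GSK126, against 64.2, 72.9 and 59.2 CPM in naive cells. HMGCS1 rose by 1.39 ± 0.27 on the log2 scale (adjusted p = 0.00238). Both genes were higher in each treated library than in each naive one. Without naive library A alone 5 passed, and without both background-rich libraries 11.

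Among 28 p53 target genes 5 rose and 0 fell, and without the background-rich libraries 7 rose and 2 fell. The cell cycle inhibitor CDKN1A (p21) had 18.4, 29.3 and 31.1 CPM (low gate) and 19.9 and 35.1 CPM (high gate) under GSK126, against 5.94, 5.06 and 4.57 CPM in naive cells. CDKN1A rose by 2.31 ± 0.32 on the log2 scale (adjusted p = 9.25e-05). The kinase PLK2 had 424, 309.9 and 247 CPM (low gate) and 439 and 366 CPM (high gate) under GSK126, against 77.5, 78.7 and 61.3 CPM in naive cells. PLK2 rose by 2.25 ± 0.24 on the log2 scale (adjusted p = 5.31e-06). Both had separate arms. Of 60 DNA replication and mitosis genes 2 rose and 0 fell, with a median of 0.03. Without naive library A 3 rose and 4 fell, without the background-rich libraries 4 rose and 7 fell, and by DESeq2 5 rose and 3 fell. Over all genes, 7.16% rose and 8.59% fell without the background-rich libraries. The 2 that rose in the main comparison were cyclin D1, CCND1 (1.07 ± 0.24), and the repressor E2F8 (0.93 ± 0.20). However, CCND1 missed the test without high-gate library B (adjusted p = 0.141). E2F8 missed the test in 2 of the 8 fits that each left out 1 library, with the highest adjusted p, 0.0812, without high-gate library A. MKI67, the proliferation marker, stood at 1464 ± 180.5 CPM under GSK126 and 1104 ± 196 CPM in naive cells (SD, n = 5 and 3; log2 fold change 0.32 ± 0.23, adjusted p = 0.5), with overlapping arms.

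Immune genes moved in small numbers and in both directions. Of 44 interferon-stimulated genes 2 rose and 4 fell: OAS1, the sensor of double-stranded RNA, had 43.5, 69.5 and 60.02 CPM (low gate) and 56.1 and 66.7 CPM (high gate) under GSK126, against 157, 169.8 and 133 CPM in naive cells. OAS1 fell by 1.45 ± 0.21 on the log2 scale (adjusted p = 0.000138). The RNA sensor RIGI fell (−0.96 ± 0.21). The transcription factor IRF1 rose (0.98 ± 0.19). However, IRF1 missed the test without high-gate library B (adjusted p = 0.0948). Of 21 MHC class I presentation genes 4 rose and 0 fell, and without the background-rich libraries 4 rose and 2 fell. HLA-B had 25.9, 12.9 and 20.3 CPM (low gate) and 23.3 and 19.96 CPM (high gate) under GSK126, against 9.71, 10.7 and 5.34 CPM in naive cells. HLA-B rose by 1.21 ± 0.28 on the log2 scale (adjusted p = 0.0111). The arms of HLA-B were separate. However, HLA-B missed the test in 2 of the 8 fits that each left out 1 library, with the highest adjusted p, 0.0868, without naive library C, and the class I genes are similar enough to share reads. Among 9 MHC class II genes 2 fell and 0 rose, while the median of the list was positive (1.14) and its other members were at low counts. Without the background-rich libraries 4 of 7 class II genes rose and 2 fell, and by DESeq2 2 of 9 rose and 2 fell. HLA-DMB, which loads peptides on class II molecules, had 3.76, 1.99 and 3.45 CPM (low gate) and 0.763 and 1.71 CPM (high gate) under GSK126, against 33.5, 29.4 and 24.7 CPM in naive cells (log2 fold change −3.89 ± 0.53, adjusted p = 0.000145), a separation without overlap. Cytokines and chemokines included 3 that rose and 2 that fell of 24, and without the background-rich libraries 5 of 20 rose and 4 fell. IL18 had 50.2, 48.2 and 33.2 CPM (low gate) and 49.2 and 43.1 CPM (high gate) under GSK126, against 96.1, 95.9 and 94.4 CPM in naive cells. IL18 fell by 1.16 ± 0.20 on the log2 scale (adjusted p = 0.000874). The neutrophil chemokine CXCL5 had 174, 179 and 197 CPM (low gate) and 171 and 184 CPM (high gate) under GSK126, against 357, 395 and 343 CPM in naive cells. CXCL5 fell by 1.101 ± 0.22 on the log2 scale (adjusted p = 0.00282). Both were lower in all treated libraries. Of 21 TNF-family ligands and receptors, TNFRSF12A, the receptor of TWEAK, and TNFRSF9, known as 4-1BB, rose (1.35 ± 0.23 and 2.15 ± 0.47), and TNFSF10 fell. Without the background-rich libraries 6 of 19 rose and 2 fell, where 7.16% of all genes rose and 8.59% fell. TNFRSF9 had a log2 fold change of 3.02 without naive library A.

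Cytosolic ribosomal protein genes and mitochondrially encoded genes were lower as groups. Of 77 ribosomal protein genes 9 fell and 0 rose, with a median of −0.55. Without naive library A 42 fell, and without both background-rich libraries 63 fell. RPS29, of the small subunit, had 108, 97.8 and 74.7 CPM (low gate) and 119 and 63.9 CPM (high gate) under GSK126, against 188, 204 and 239 CPM in naive cells. RPS29 fell by 1.28 ± 0.25 on the log2 scale (adjusted p = 0.00216). It kept its call in all 8 fits that each left out 1 library. Of the other ribosomal genes called, RPS27 missed the test in 1 of these fits and RPL37 and RPL39 in 3. RPL31 missed it in 5, RPS25 and RPS27A in 6, and RPS21 and RPL32 in 7. Of 15 mitochondrially encoded genes 6 fell and 0 rose. Each of the 6 missed the test in at least 1 of the 8 fits that left out a library. MT-ND3 and MT-ND6 missed it in 1, MT-ND4L in 2, MT-ATP8 in 5, MT-RNR2 in 6 and MT-CO2 in 7. The 15 genes made up 5.55, 5.39 and 5.20% of counts in the low gate and 4.70 and 5.31% in the high gate under GSK126, against 9.29, 6.36 and 7.07% in naive cells. The mean share was 5.23 ± 0.323% under GSK126 (SD, n = 5) and 7.57 ± 1.53% in naive cells (SD, n = 3), and the arms did not overlap (exact permutation test, two-sided p = 0.0357, the smallest the design allows). Sorting and depth also differed between these arms, and their part in the share was not tested. In the sorted TGF-β1 cells, 38 of the 77 ribosomal protein genes were lower than in naive cells and 0 higher (median −0.73). Of the 15 mitochondrially encoded genes, 4 were lower there and 0 higher (median −0.49). Between GSK126 and TGF-β1, 1 ribosomal protein gene was higher and 0 lower under GSK126, and 0 mitochondrially encoded genes were higher and 1 lower.

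**Figure D3:**
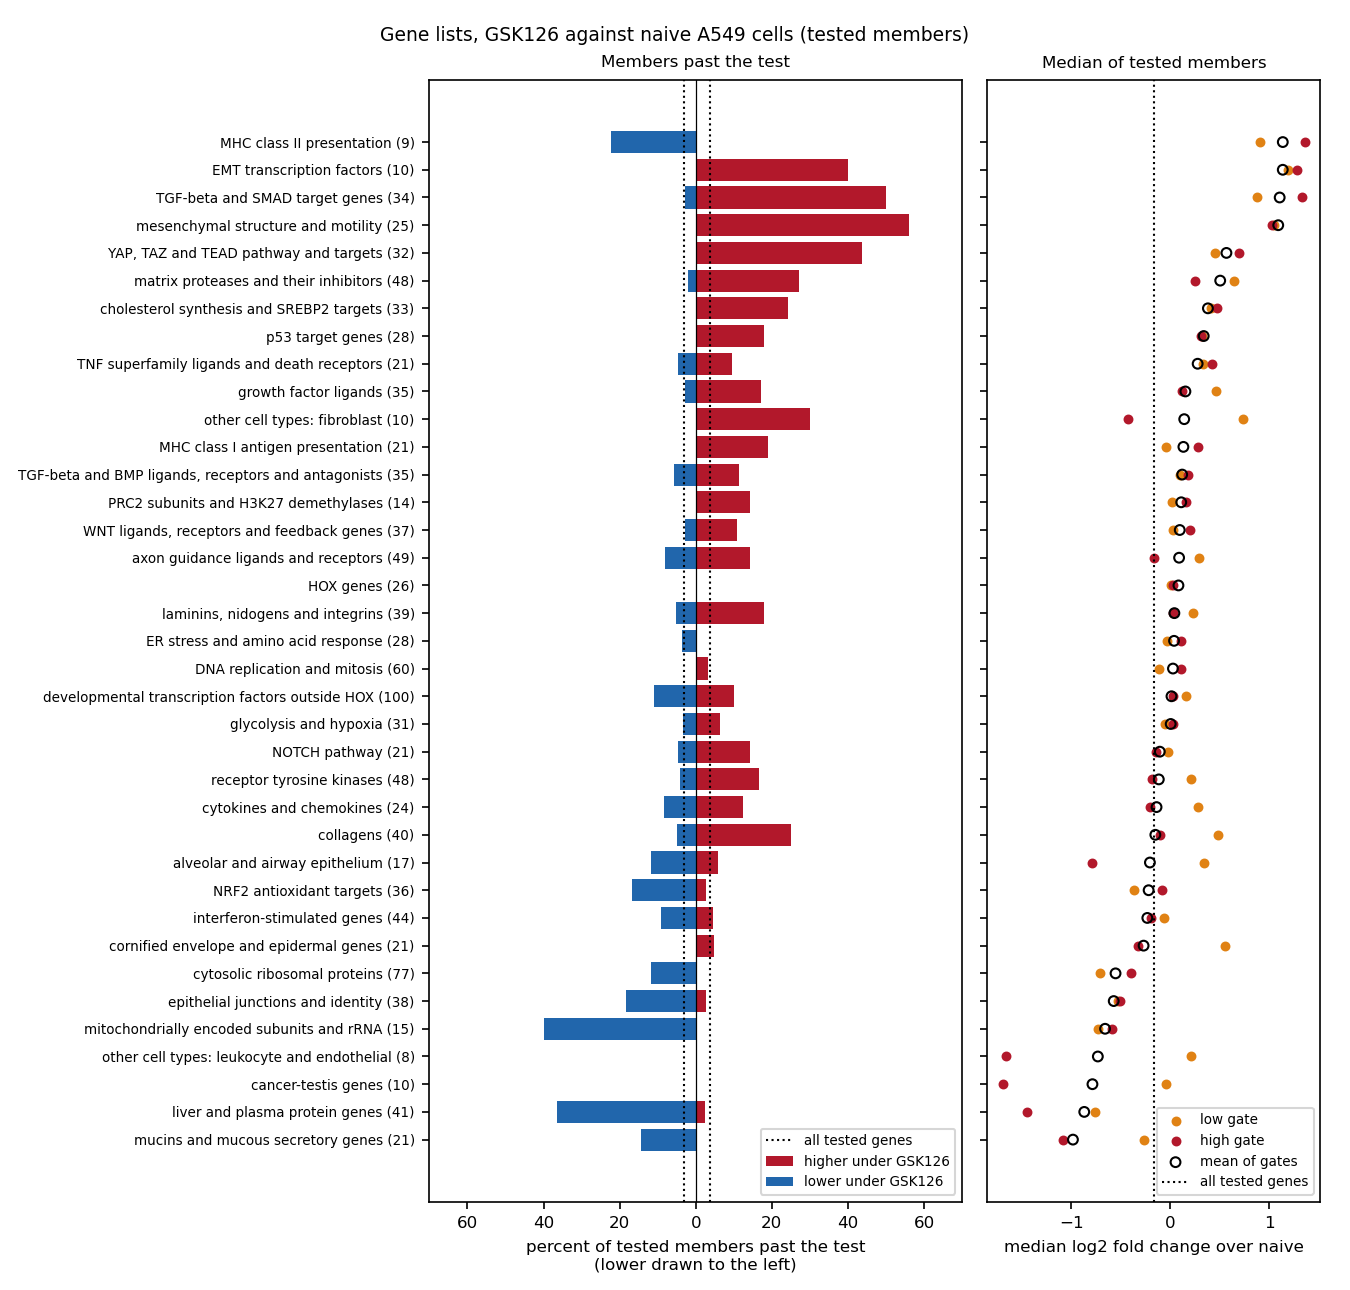
Left, percent of the tested members of each of 37 gene lists that passed the test, higher under GSK126 to the right in red and lower to the left in blue, with dotted lines at 3.66% and 3.21% of all tested genes; right, the median log2 fold change of the tested members for the low gate (orange), the high gate (red) and their mean (open circles) over naive cells. Bars for mesenchymal, TGF-β and YAP lists extend to the right, those for liver, mitochondrial and epithelial lists to the left, and lists are ordered by their median.

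The high and the low mVenus gate under GSK126 were also set against each other. No gene passed the test by edgeR (980 at an unadjusted p under 0.05; smallest adjusted p = 0.744), by DESeq2 (1210 at an unadjusted p under 0.05) or by limma-voom (2417). When only the 5 GSK126 libraries entered the fit, 18 genes passed, all lower in the high gate. With 2 libraries in the high gate this comparison could miss differences of ordinary size, so the gates are not shown to be alike. CDH1 stood at 7.86 ± 1.84 CPM in the high gate (SD, n = 2) and 6.23 ± 0.782 CPM in the low gate (SD, n = 3). FN1 stood at 788 ± 301 CPM in the high and 823 ± 220.2 CPM in the low gate. Each gate alone against naive cells gave 914 genes for the high gate (4.61%) and 873 for the low gate (4.40%).

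GSK126 was then set against TGF-β1, where both arms had been sorted. At an adjusted p under 0.05, 11.7% of 19842 genes were higher and 8.01% lower under GSK126. Mucous genes were among the highest. MUC5B averaged 283 ± 52.1 CPM under GSK126 and 1.48 ± 1.66 CPM under TGF-β1 (SD, n = 5 each; log2 difference 7.74 ± 0.50). AGR2 averaged 254 ± 64.5 CPM under GSK126 and 2.103 ± 1.47 CPM under TGF-β1 (6.91 ± 0.37). GPX2 (6.46 ± 0.28), the basement membrane linker NID2 (3.89 ± 0.30), DLC1 (3.76 ± 0.43), POSTN (3.06 ± 0.39), AXL (1.89 ± 0.23) and DPYSL3 (1.700 ± 0.18) were higher under GSK126 than under TGF-β1. COL4A1 (−3.87 ± 0.21), IL11 (−3.81 ± 0.21), ADAM19 (−3.704 ± 0.25), COL1A1 (−3.26 ± 0.28), MMP2 (−2.71 ± 0.26) and JUP (−2.44 ± 0.28) were lower. For SNAI2 (−0.04 ± 0.22, adjusted p = 0.916), RUNX2 (0.12 ± 0.21, adjusted p = 0.7) and CDH1 (1.11 ± 0.49, adjusted p = 0.137) the difference between the agents did not pass the test, and the SEs leave room for differences in either direction for SNAI2 and RUNX2.

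H1944 shares no library with A549, and the same comparison was made there between 6 GSK126 and 3 naive libraries. There too the GSK126 cells were sorted and the naive cells were not, so calls shared by the lines do not separate GSK126 from sorting. Of 13264 genes tested in both lines, 693 were higher in A549, and 465 of them (67.1%) were also higher in H1944, where 21.4% of these genes were; the 465 made up 16.4% of the genes higher in H1944. Of the 592 lower in A549, 265 (44.8%) were lower in H1944, where 18.6% were, and they made up 10.7% of the genes lower in H1944. The common coefficient of biological variation was 0.358 in the A549 fit and 0.098 in the H1944 fit. The power to detect a change was therefore unequal, and a gene called only in H1944 is not shown to be unchanged in A549. In H1944, SNAI2 (5.098 ± 0.41), DPYSL3 (3.58 ± 0.18), AXL (3.74 ± 0.34), TNC (2.32 ± 0.25) and CCN1 (3.13 ± 0.12) rose too, with no difference between the lines past the test. NTS (−3.17 ± 0.18) fell there as in A549. The difference between the lines itself was tested over 17918 genes, and 1777 passed (9.92%). FN1 rose by 1.72 ± 0.28 in A549 and 5.78 ± 0.12 in H1944 on the log2 scale (difference −4.04 ± 0.30). LTBP2 rose by 3.88 ± 0.28 in A549 and 0.47 ± 0.13 in H1944 (difference 3.42 ± 0.28). CDH1 fell by 3.24 ± 0.45 in A549 and 1.64 ± 0.09 in H1944 (difference −1.57 ± 0.40). For FOXC2 (4.24 ± 0.56) and ZEB2 (1.88 ± 0.56), which did not pass the test within H1944, the change in A549 was higher, and for TWIST1 (−4.02 ± 0.86) it was lower. The cholesterol genes INSIG1 and HMGCS1 rose by 1.88 ± 0.30 and 1.39 ± 0.27 in A549 and by 0.28 ± 0.09 and 0.32 ± 0.08 in H1944, and each difference passed the test.

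**Figure D4:**
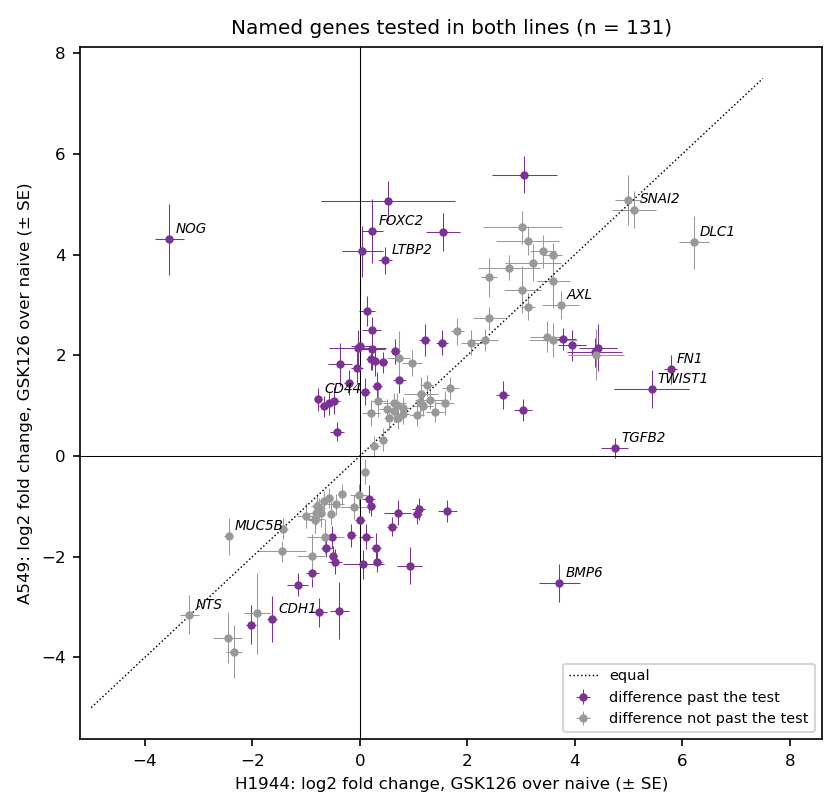
Log2 fold change of GSK126 over naive cells in A549 (vertical) against the same in H1944 (horizontal) for 131 named genes tested in both lines, with SE bars; purple points are the 63 genes whose difference between the lines passed the test, grey points the others, and the dotted line marks equal values. SNAI2 lies near the line, while NOG and BMP6 lie in opposite directions in the 2 lines.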

How the data were processed

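The members and gene lists were chosen with earlier results of these data known. The deposited table holds raw integer counts per gene and library; the authors used 10 ng of total RNA and a stranded Pico-input kit, per the labels' protocols. The submitters' processing notes name bcl2fastq 2.20.0, STAR 2.6.0c, HTSeq 0.12.3 and the build GRCh38. The strand setting of the counting is not given in the sources used here, so antisense and overlapping genes are uncertain. Of 60483 Ensembl identifiers 56753 matched a GENCODE 29 gene, from which symbols, biotypes and coordinates (GRCh38) were taken. CPM is the count divided by the library total, without TMM factors.

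The 13 A549 libraries were fitted together with edgeR 4.0.16 in R 4.3.3 (quasi-likelihood F test, robust, TMM, edgeR's own low-count filter) with 5 groups as the model; p-values were adjusted by Benjamini-Hochberg over all genes tested at 0.05. The common coefficient of biological variation was 0.358, with 8 residual degrees of freedom. The difference between lines came from a fit of all 28 libraries. Alternatives used DESeq2 1.42.0, limma-voom (limma 3.58.1), other filters and scalings, and fits without single libraries. The tests were tried on simulated counts. Named genes were the 15 highest and 15 lowest coding genes and the 3 highest and 3 lowest long noncoding genes past the test with separate arms and a mean of at least 2 CPM in the higher arm, from each of 37 lists the 4 called members with the lowest adjusted p, and 20 key genes, of which NKX2-1 did not pass the filter; others were chosen after their values were seen. Some genes that this rule names are not reported here. Promoter windows from RefSeq were found for 77.0% of higher and 78.9% of lower coding genes, so shares of motifs over these sets were void and are not given. Same-letter libraries of the gates correlated in their deviations at 0.166 and 0.0784, and with naive libraries at −0.168 to 0.220, so letters were not taken as pairs.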

Additional observations from a re-analysis of the deposited data

Results flagged for a closer look

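The effect of GSK126 in A549 differed from that in H1944 for 1777 genes past the test of the difference itself, and these results were marked for that reason. Of 147 named genes in the joint fit, 69 passed it, and 15 of them had passed the test in each line in opposite directions. NOG, CD44, JAG1, LPCAT1 and WNT5A rose in A549 and fell in H1944. NOG, a BMP antagonist, differed by 7.83 on the log2 scale (4.301 ± 0.70 in A549 and −3.54 ± 0.27 in H1944), the hyaluronan receptor CD44 by 1.94, the NOTCH ligand JAG1 by 1.68, the surfactant lipid enzyme LPCAT1 by 1.65 and WNT5A by 1.58.

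The other 10 fell in A549 and rose in H1944. BMP6 differed by −6.24 (−2.52 ± 0.38 in A549 and 3.71 ± 0.38 in H1944). The secreted iron-binding protein gene LCN2 differed by −3.07, the chemokine CXCL5 by −2.701, the peroxidase GPX2 by −2.39 and the cytokine IL18 by −2.19. The junction and epithelial genes ITGB6, JUP and ELF3 differed by −2.14, −2.08 and −1.97. The protease CTSS differed by −1.79 and the carbonic anhydrase CA12 by −1.17. Of the genes that rose in A549, WNT5A missed the test there in 3 and JAG1 in 2 of the 8 fits that each left out 1 library. In A549, the call of LPCAT1 (1.04 ± 0.23) was lost without high-gate library B (adjusted p = 0.0951), that of CTSS (−1.13 ± 0.25) without naive library B (adjusted p = 0.0551) and that of CA12 (−0.99 ± 0.20) without high-gate library A (adjusted p = 0.0536).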

How the results depend on the processing

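The number of genes past the test for GSK126 against naive cells was 1363 and moved most with the tool and the libraries in the fit: 873 with the low gate alone, 2281 with DESeq2, 2257 with only the groups compared, 3396 with limma-voom, 2674 without the background-rich libraries, and 2838 in a fit of all 28 libraries of both lines, chosen after seeing the data. Leaving out 1 library at a time gave 676 (without high-gate library B) to 1745; this left 1 library in the high gate, which was then taken to vary like the other groups. The replicate block by letter gave 976 genes (542 higher and 434 lower) here, 0 between the gates, 3014 against TGF-β1 and 1642 for the difference between lines, and the letters were not taken as pairs. Between the gates 0 genes passed in every fit except that of the compared groups alone, which gave 18. Against TGF-β1 3907 genes passed, 2495 with no filter on low counts and 6054 with limma-voom, and 2207 (without high-gate library B) to 4364 with 1 library left out. The difference between lines gave 1777 genes, 2883 with limma-voom, and 1367 to 1976 with 1 library left out. The difference in mitochondrial share, −2.34 percentage points, was −2.19 with the low gate and −2.57 with the high gate alone, and −2.95 to −1.48 with 1 library left out; these designs cannot reach 0.05. No result reversed under any alternative run. Counts of 2013449 to 4783344 in the GSK126 libraries limit what can be detected in low genes.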

Other observations

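Small nuclear and nucleolar RNA genes were lower under GSK126 as a class. Of 87 snoRNA and scaRNA genes tested, which guide the modification of ribosomal and spliceosomal RNA, 37 fell and 0 rose, with a median log2 fold change of −1.77; without the background-rich libraries 59 of 81 fell. They took 0.192, 0.179 and 0.104% of counts in the low gate and 0.245 and 0.124% in the high gate under GSK126, against 0.355, 0.479 and 0.632% in naive cells. The arms did not overlap. In H1944, 21 of 38 fell and 0 rose. Of 34 snRNA genes 7 fell and 0 rose. Sorting and depth moved with the same arms, and their part in these values was not tested.

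Several neighbouring genes were past the test in the same direction, listed here after the values were seen. On chromosome 4 the 3 fibrinogen genes FGB, FGA and FGG (154562956 to 154612967) fell, as did NPY1R and NPY5R (163323961 to 163351934). On chromosome 11 OR51E1 and OR51E2 fell (4643420 to 4697854). On chromosome 12 ALX1, RASSF9 and NTS fell (85280107 to 85882992), while KRT86 and KRT81 rose (52249300 to 52309163) and KRT8 and KRT18 fell (52897187 to 52952901). On chromosome 10 AKR1C1, AKR1C2 and AKR1C3 fell (4963253 to 5107686), and near-identical genes such as these and the keratins can share reads. Some of these calls were lost when 1 of the 8 libraries was left out: NPY5R missed the test in 4 of the 8 fits (highest adjusted p = 0.101, without naive library B), AKR1C3 in 5 (0.188) and AKR1C1 in 2 (0.0683), both without naive library B, and the losses of FGA, FGB, FGG and KRT8 are given with their values. Coordinates are of GRCh38.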
